A study of Mus musculus with 31 samples.

Results

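The genes Igsf9b, Zmiz1, Zfpm1 and Itgb4, which are not myelin genes, were followed through ribosome profiling and mRNA sequencing of mouse cortex. They were selected on the footprint and mRNA counts themselves, for fewer footprints or a lower translational efficiency in mice without Fmr1 (FXS) or without both Fmr1 and Rps6kb1 (DKO) than in wild-type mice (WT). They are 4 of the 20436 gene symbols in the count tables. By the fits used here, 438 genes were called lower in footprints or translational efficiency in FXS or DKO, and 420 of these lie outside a list of 25 oligodendrocyte and myelin genes. The 4 are therefore chosen examples and not the whole class.

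Tissue was dissected cortex of mice at postnatal day 29 to 34. The 4 genotypes were WT, FXS (deficient in Fmr1), S6K1 (deficient in Rps6kb1, which encodes S6 kinase 1) and DKO (deficient in both genes). The strain, the sex, the alleles and the Cre or other means of deletion are not given in the sources used here, and neither is whether libraries of a genotype came from separate animals. The p-values therefore measure the spread between these libraries, which may be technical in part. Footprints, the stretches of mRNA that ribosomes shield from nuclease (RPF below), were sequenced in 15 libraries, of which 4 were WT, 5 FXS, 3 S6K1 and 3 DKO. Polyadenylated mRNA was sequenced in 16 libraries, 4 of each genotype.

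Ribosome profiling counts how many ribosomes sit on the coding sequence of each gene, so footprints divided by mRNA give a measure of how heavily a transcript is loaded, the translational efficiency (TE). Fmr1 encodes FMRP, an RNA-binding protein that associates with coding sequences and polyribosomes of many brain mRNAs, among them long neuronal ones, and its loss causes fragile X syndrome. S6 kinase 1 acts downstream of mTORC1, phosphorylates ribosomal protein S6 and initiation factors, and is a main link between growth signals and the translation machinery. The 4 genes act in unrelated places: Igsf9b encodes an adhesion protein of inhibitory synapses, Zmiz1 a transcriptional co-regulator of the PIAS family, Zfpm1 the GATA cofactor FOG1, and Itgb4 the integrin subunit that pairs with integrin alpha 6 on laminin.

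Levels are CPM, counts scaled to a common library size after TMM normalization, which corrects for library size and composition within each assay. They compare 1 gene across libraries, not different genes, because coding length is not removed. Log2 fold changes come from models that hold batch as a term, and a gene is called where its Benjamini-Hochberg adjusted p in edgeR's quasi-likelihood test, over all genes of the fit, is below 0.05. Libraries held 16633416 to 34853751 counts for RPF and 12134624 to 17267368 for mRNA. Each of the mRNA batches 5 to 8 held every genotype once, whereas the RPF batches were unbalanced, and batch 1 held S6K1 replicate 1 and DKO replicate 1 alone. Fmr1 footprints were 105 to 138 CPM in WT and 7.03 to 8.68 CPM in FXS, and 8.04 to 12.8 CPM in DKO, as the labels say. Rps6kb1 footprints differed from WT by -1.63 ± 0.137 (log2, SE) in S6K1 and by -1.44 ± 0.13 in DKO. Since FXS and DKO against WT chose the genes, every value of those comparisons below is a description without a test. Tests are given for S6K1 against WT and DKO against FXS, whose WT, FXS and DKO libraries also entered the choice.

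Igsf9b spans chr9:27299104-27357549 and Zmiz1 chr14:25457875-25666743 in the RefSeq annotation of GRCm38.p6, the assembly that the mm10 build of the files represents. Zfpm1 spans chr8:122281856-122337862, and Itgb4 spans chr11:115974725-116008412. Itgb4 lies on the same chromosome as Rps6kb1, at a distance of 29.4 Mb. In the annotation 56 bases of the Itgb4 span overlap Galk1, and whether counting used strand is not given in the sources used here. Galk1 footprints differed from WT by -0.16 ± 0.166 in FXS and by -0.17 ± 0.207 in DKO, and neither difference was called (adjusted p = 0.782 and 0.688).

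Messenger RNAs that begin with an oligopyrimidine tract are the textbook class whose translation follows mTORC1. For this reason an annotated start of each gene with an entry is shown. RefSeq (GRCm38.p6) promoter entries matched 2 of the 4 genes. Each line gives the 15 bases before the annotated start in lower case and the first 15 transcribed bases in capitals, on the plus strand, at chr14:25459170-25459199 and chr8:122282126-122282155. The starts are those of the promoter entries and were not measured here. Both windows lie inside the gene spans given above, downstream of the first base of the span. Other starts of these genes were not examined.
Zmiz1: ggcggcgcggggcccTTTGGAAATAGAATA
Zfpm1: gcctgcggggagcgcCCTGGCGGCGGCCGC
The first 15 transcribed bases hold 5 pyrimidines in Zmiz1 and 8 in Zfpm1. Neither window has the letters searched for, a C at the first base followed by 4 pyrimidines, read on the transcribed strand. By the same rule 315 of 13573 promoters of genes tested in RPF (2.32%) have it, and 12 of 64 of cytosolic ribosomal protein genes (18.8%). Since the rule passes over most ribosomal protein promoters too, its absence does not show that a gene lacks an oligopyrimidine start. The promoter entries are 60.7% GC for Zmiz1 and 73.7% for Zfpm1, against a median of 60.7% over genes tested in RPF.

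Igsf9b footprints were lower in both genotypes without Fmr1, at 0.539 of WT in FXS and 0.633 of WT in DKO, and overlapped WT without Rps6kb1 alone, while its mRNA showed no such order. Igsf9b encodes an immunoglobulin-superfamily adhesion molecule that joins neuroligin 2 at inhibitory synapses through the scaffold S-SCAM, encoded by Magi2. Its footprints stood at 19.9, 16.03, 14.3 and 14.9 CPM in the WT libraries. In FXS they were 12.4, 10.9, 6.93, 8.47 and 7.56 CPM. Every FXS library lay below every WT library. Such separation in this direction occurred in 1.08% of all genes tested in RPF, and Igsf9b, Zfpm1 and Itgb4 were the 3 of the 4 genes that showed it. In DKO the footprints were 8.05, 9.59 and 9.18 CPM, again all below WT, as held for all 4 genes and for 7.22% of genes tested in RPF. In S6K1 they were 12.2, 17.97 and 20.5 CPM, which overlaps WT and lies wholly above DKO. Of genes tested in RPF, 4.86% had DKO wholly below S6K1. The lowest S6K1 value is that of batch 1, where the DKO library is also the lowest of its group.

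The mRNA of Igsf9b varied more with batch than with genotype. It was 12.5, 6.55, 7.08 and 8.42 CPM in WT and 12.4, 5.45, 7.82 and 11.3 CPM in FXS. It was 10.8, 5.71, 6.98 and 9.55 CPM in S6K1 and 10.6, 6.42, 5.65 and 5.73 CPM in DKO. The first value of each group is batch 5, which was the highest in all 4 genotypes, and no pair of genotypes was separated across batches. Within batches, DKO lay below WT in 4 of 4 (log2 ratio -0.55 to -0.03), FXS in 2 of 4 and S6K1 in 3 of 4. Raw mRNA counts of Igsf9b were low, 71 to 223 per library, against 187 to 499 footprint counts.

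With batch in the model, Igsf9b footprints differed from WT by -0.89 ± 0.123 in FXS and by -0.66 ± 0.153 in DKO (log2 fold change ± SE). The mRNA differences were 0.09 ± 0.152 and -0.28 ± 0.155. The TE difference from WT was -0.99 ± 0.196 in FXS and -0.39 ± 0.219 in DKO. Between DKO and FXS the TE difference was 0.60 ± 0.217, which was not called (adjusted p = 0.567). In S6K1 the footprints differed from WT by 0.10 ± 0.152 and were not called (adjusted p = 0.915).

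**Figure D1:**
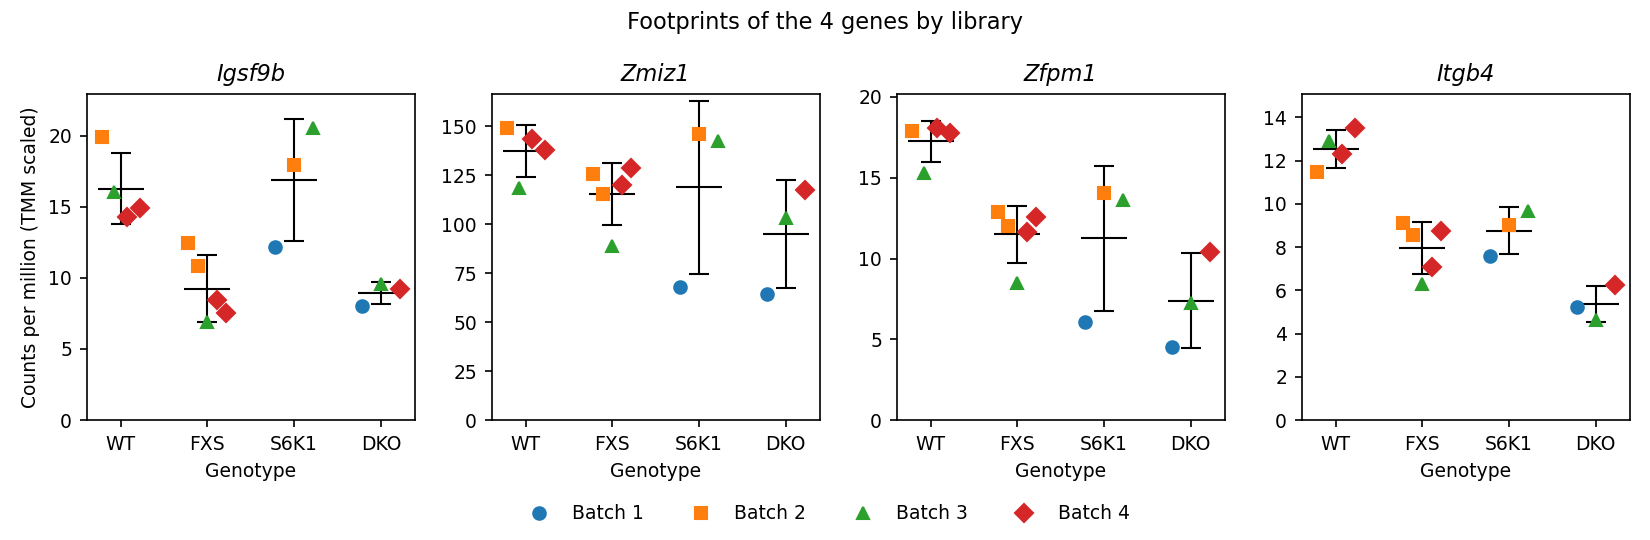
Footprints of the 4 genes in each RPF library, in CPM after TMM scaling (y axis from 0), by genotype (x axis), with points marked by batch and bars showing mean ± SD (WT n = 4, FXS n = 5, S6K1 n = 3, DKO n = 3). FXS points of Igsf9b, Zfpm1 and Itgb4 all lie below WT, Zmiz1 points overlap between FXS and WT, and the batch 1 points are the lowest of their group for every gene except Itgb4 in DKO.

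Genes that build inhibitory synapses gave a context of 18 tested genes (neuroligins, neurexins, gephyrin and its partners, GABA-A receptor auxiliary proteins), without Igsf9b. By edgeR, none of the 18 was called in FXS in mRNA, RPF or TE (0.155%, 0.165% and 0.0952% of all genes were called there in either direction), and in RPF 16 of 18 were below 0 with a median of -0.08. Without adjustment, p was below 0.05 for 9, 2 and 5 of them in the 3 measures, against 12.7%, 9.87% and 13.4% of all genes, and DESeq2 called 1, in TE. In DKO none was called in RPF by edgeR (0.366% of all genes were) or DESeq2, with 8 of 18 below an unadjusted p of 0.05 (17.1% of all genes were), 16 of 18 below 0 and a median of -0.23, against -0.01 over all genes. In mRNA, 2 were called higher in DKO (5.23% of all genes were called in either direction), among them Nlgn2 by 0.33 ± 0.0858 (adjusted p = 0.0297). In TE, 5 of 18 were called lower in DKO (3.00% of all genes were): Igsf21, Nlgn2, Nrxn3, Nlgn3 and Magi2. DESeq2 called 9 there, and 12 had an unadjusted p below 0.05 (24.9% of all genes did). TE was below 0 for 18 of 18 in FXS and 16 of 18 in DKO (medians -0.21 and -0.435). The medians of mRNA were 0.14 in FXS and 0.17 in DKO, with 1 and 3 of 18 below 0. Nlgn2, the neuroligin of inhibitory synapses, fell by 0.70 (SE 0.19, adjusted p = 0.0381) and the scaffold Magi2 fell by 0.40 (SE 0.113, adjusted p = 0.043). Igsf21, which binds neurexin 2 alpha at inhibitory terminals, fell by 0.79 (SE 0.212, adjusted p = 0.0374). None of these edgeR calls in mRNA and TE was made without the batch term. Those of Nlgn2, Nlgn3 and Magi2 in TE were also lost with WT and DKO fitted alone. Magi2 was lost as well without the low-count filter and without the batch 1 footprint libraries. The closest paralog, Igsf9, had footprint differences of -0.46 ± 0.255 in FXS and -0.80 ± 0.331 in DKO that were not called (adjusted p = 0.577 and 0.247), at a mean of 1.84 CPM in WT.

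Zmiz1 departed from the label of a gene losing footprints. Its footprints were only slightly lower in FXS and DKO, and its lower TE came with more mRNA in both. Zmiz1 is a co-activator with a PIAS-type zinc finger that works with the androgen receptor, Smad proteins and Notch1, and variants in the human gene cause a neurodevelopmental syndrome. Footprints were 149, 118, 144 and 138 CPM in WT. In FXS they were 125, 115, 88.8, 120.1 and 128 CPM, which overlaps WT. DKO footprints were 64.4, 103 and 118 CPM, and S6K1 footprints were 68.0, 146 and 142 CPM. The DKO libraries lay below WT without overlap, but the highest DKO library, 117.7 CPM, nearly met the lowest WT library, 118.4 CPM. The batch 1 libraries, 68.0 CPM in S6K1 and 64.4 CPM in DKO, were far below the others of their genotype, and this batch has no WT library to set beside them.

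The mRNA of Zmiz1 was 55.3, 42.6, 46.6 and 52.8 CPM in WT. It was 67.9, 56.3, 56.3 and 65.5 CPM in FXS and 72.9, 59.3, 55.7 and 66.9 CPM in DKO. All 4 libraries of FXS, and all 4 of DKO, were above all WT libraries. Separation upwards from WT was seen in 1.41% of genes tested in mRNA for FXS and 3.40% for DKO. S6K1 mRNA was 63.9, 56.3, 50.5 and 71.4 CPM, above WT in each of the 4 batches but overlapping it overall.

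In the model, Zmiz1 mRNA was higher than in WT by 0.32 ± 0.0698 in FXS and by 0.37 ± 0.0698 in DKO, both given without a test. In S6K1 it differed by 0.29 ± 0.0701, and this difference was not called (adjusted p = 0.316). Across 14 alternative settings the adjusted p of that difference ran from 0.13 to 0.9998. Footprints differed from WT by -0.27 ± 0.0783 in FXS, -0.19 ± 0.098 in DKO and 0.10 ± 0.0985 in S6K1 (not called, adjusted p = 0.855). Without the batch term the DKO footprint value was -0.53, and without DKO replicate 3 it was -0.0951. TE was -0.59 ± 0.104 in FXS, -0.56 ± 0.116 in DKO and -0.20 ± 0.117 in S6K1 (not called, adjusted p = 0.745).

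**Figure D2:**
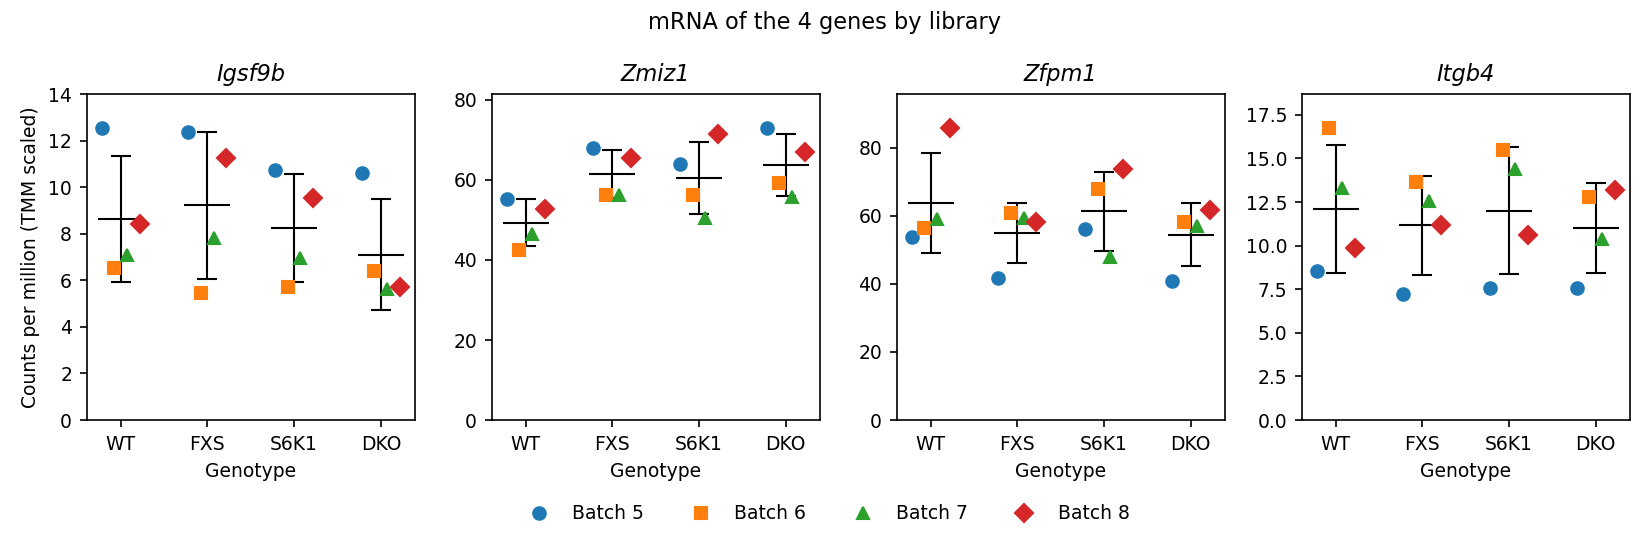
Messenger RNA of the same genes in each mRNA library, in CPM after TMM scaling (y axis from 0), by genotype (x axis, n = 4 each), with points marked by batch and bars showing mean ± SD. Zmiz1 points of FXS and DKO lie above all WT points, while the other genes overlap in all genotypes and batch 5 is the highest for Igsf9b and the lowest for Itgb4 in each genotype.

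The PIAS and SUMO pathway attaches the small modifier SUMO to proteins and removes it, and gave the context for Zmiz1. Of 20 other genes, edgeR called none in RPF in FXS or DKO, DESeq2 called 1 in DKO, and 4 had an unadjusted p below 0.05 in each, against 9.87% and 17.1% of all genes. In DKO 4 of 20 were below 0, with a median of 0.10. In DKO mRNA 2 of 20 were called lower (5.23% of all genes were called in either direction), among them the SUMO protease Senp6 (-0.27 ± 0.0772, adjusted p = 0.0456). In DKO TE 2 of 20 were called higher and 1 lower (4.85% of all genes were called in either direction). The one called lower was Zmiz2, the paralog of Zmiz1, which fell by 0.47 (SE 0.124, adjusted p = 0.0343). The Senp6 and Zmiz2 calls were lost without the batch term and with WT and DKO fitted alone. Zmiz2 mRNA differed from WT by 0.19 ± 0.0716 and its footprints by -0.27 ± 0.103 in DKO, neither called (adjusted p = 0.113 and 0.215). Pias1, a SUMO ligase that gives the family its name, had a footprint difference of 0.13 ± 0.0914 that was not called (adjusted p = 0.48).

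Zfpm1 footprints were lower in FXS and lowest in DKO, with S6K1 between WT and DKO. FOG1, the product of Zfpm1, binds GATA factors and brings the NuRD repressor complex to their targets, and is best known from blood cell development. Its footprints were 17.9, 15.3, 18.1 and 17.7 CPM in WT. FXS libraries stood at 12.9, 12.01, 8.48, 11.6 and 12.6 CPM. DKO libraries stood at 4.52, 7.22 and 10.4 CPM, so that neither group reached the lowest WT library. S6K1 libraries, at 6.08, 14.04 and 13.6 CPM, were below WT as well, a separation found in 6.41% of all genes tested in RPF. The 2 lowest of these values, 4.52 CPM in DKO and 6.08 CPM in S6K1, are both of batch 1.

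The mRNA of Zfpm1 overlapped between all genotypes. It was 53.8, 56.5, 59.2 and 85.7 CPM in WT and 41.7, 60.7, 59.5 and 58.1 CPM in FXS. It was 56.1, 67.8, 47.8 and 73.8 CPM in S6K1 and 40.9, 58.1, 57.2 and 61.7 CPM in DKO. In WT cortex the ratio of footprint CPM to mRNA CPM was 0.27 for Zfpm1, a ratio that 11.04% of genes fell below, and it was 0.209 in FXS, 0.183 in S6K1 and 0.136 in DKO. The same ratio in WT was 1.88 for Igsf9b, 2.78 for Zmiz1 and 1.03 for Itgb4, against a median of 0.785 over 13654 genes.

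In the model, Zfpm1 footprints differed from WT by -0.61 ± 0.0976 in FXS (0.656 of WT) and by -0.87 ± 0.124 in DKO (0.548 of WT). The mRNA differences were -0.21 ± 0.107 and -0.23 ± 0.107. TE stood at -0.41 ± 0.15 in FXS and -0.65 ± 0.173 in DKO. S6K1 footprints differed from WT by -0.25 ± 0.125, which was not called (adjusted p = 0.596). DKO footprints differed from FXS by -0.26 ± 0.123, also not called (adjusted p = 0.762).

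Of the FOG, GATA and NuRD genes other than Zfpm1, 18 of 23 passed the filter on low counts, and edgeR and DESeq2 called none in RPF in FXS or DKO (medians 0.02 and 0.0014). An unadjusted p below 0.05 was found for 0 and 1 of them, against 9.87% and 17.1% of all genes. Zfpm2, which encodes FOG2, had a footprint difference of -0.36 ± 0.106 in DKO that was not called (adjusted p = 0.137). Chd5, the neuronal NuRD helicase, was called in mRNA and in TE in DKO: its mRNA rose by 0.31 ± 0.0666 (adjusted p = 0.012) and its TE fell by 0.45 (SE 0.118, adjusted p = 0.0342). Both calls were lost without the batch term, and that in TE also with WT and DKO fitted alone and without the batch 1 footprint libraries. Its footprints differed by -0.13 ± 0.0999 (adjusted p = 0.503). Chd4, the widely expressed NuRD helicase, and the co-repressor Ctbp1 had footprint differences of -0.13 ± 0.102 and -0.01 ± 0.0819 in DKO (adjusted p = 0.519 and 0.945). Gata2 footprints differed by -0.60 ± 0.503 in DKO and were not called (adjusted p = 0.547).

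Itgb4 had the deepest footprint difference from WT in DKO of the 4 genes, with FXS and S6K1 between DKO and WT. Integrin beta 4 has a long cytoplasmic tail that binds plectin and anchors epithelial cells to laminin in hemidesmosomes; in brain it has been found in vessels and in neural cells. Footprints were 11.5, 12.9, 12.3 and 13.5 CPM in WT. They were 9.10, 8.56, 6.30, 7.07 and 8.74 CPM in FXS and 7.57, 9.05 and 9.67 CPM in S6K1. DKO footprints, at 5.24, 4.62 and 6.25 CPM, lay below every library of the other 3 genotypes; 2.10% of genes tested in RPF had DKO wholly below FXS and 4.86% wholly below S6K1. FXS and S6K1 overlapped each other and both lay wholly below WT, as held for 1.08% and 6.41% of genes tested in RPF. Raw counts behind these values were 131 to 430 per library.

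Itgb4 mRNA overlapped between all genotypes and, like that of Igsf9b, followed batch. It was 8.56, 16.7, 13.3 and 9.87 CPM in WT and 7.21, 13.7, 12.6 and 11.2 CPM in FXS. It was 7.57, 15.5, 14.4 and 10.6 CPM in S6K1 and 7.59, 12.8, 10.4 and 13.2 CPM in DKO. The first value of each, batch 5, was the lowest in all 4 genotypes.

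In the model, Itgb4 footprints differed from WT by -0.68 ± 0.124 in FXS (0.626 of WT) and by -1.14 ± 0.157 in DKO (0.455 of WT). The mRNA differences were -0.12 ± 0.131 in both, and TE was -0.57 ± 0.18 in FXS and -1.02 ± 0.203 in DKO. S6K1 footprints differed from WT by -0.42 ± 0.157, and DKO footprints from FXS by -0.46 ± 0.157. Neither of these passed the threshold (adjusted p = 0.46 and 0.762). The libraries did not overlap in either comparison, a separation in this direction that 6.41% and 2.10% of genes tested in RPF showed. Over all genes tested in RPF, 0.00717% were called in the S6K1 comparison with WT, and 0.0143% were called between DKO and FXS.

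**Figure D3:**
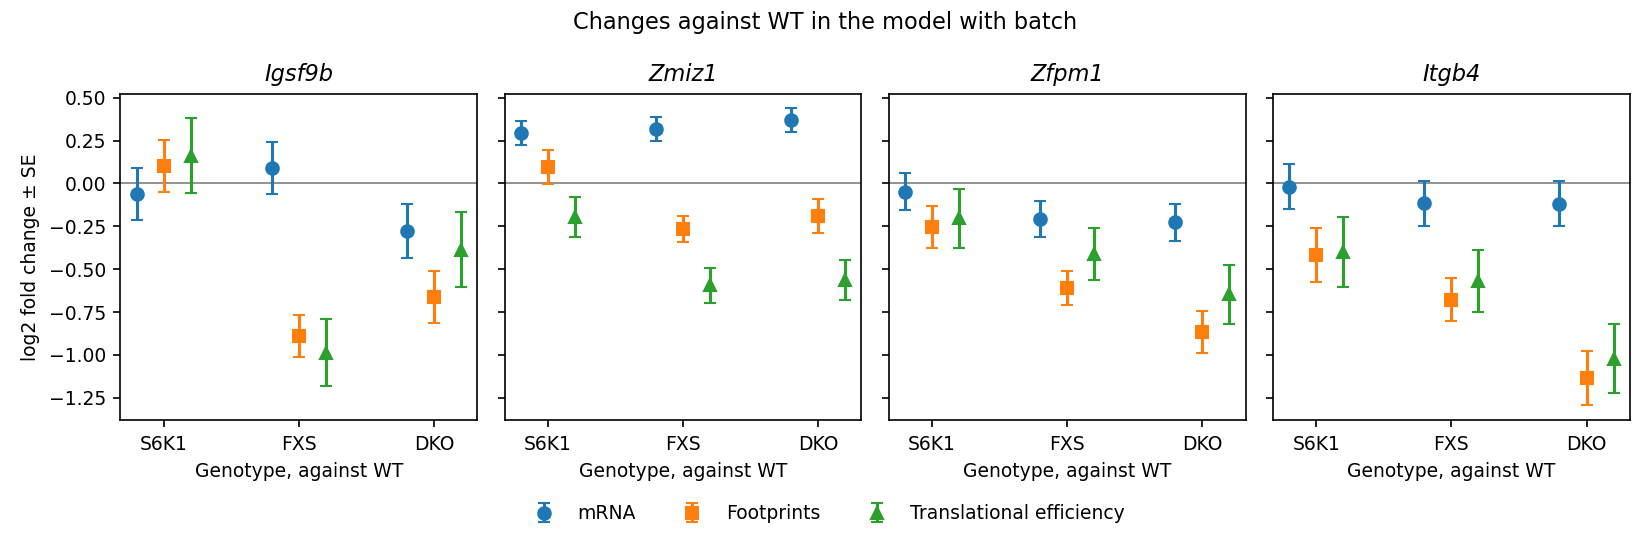
Log2 fold change against WT ± SE (y axis) for mRNA, footprints and TE in S6K1, FXS and DKO (x axis), from models with batch as a term, 1 panel per gene. Footprints of Zfpm1 and Itgb4 step down from S6K1 through FXS to DKO, those of Igsf9b and Zmiz1 lie near or above 0 in S6K1 and below 0 in both other genotypes, and Zmiz1 mRNA is above 0 in all 3.

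The laminin receptors and ligands around Itgb4 held 34 other genes, 32 of them tested in RPF. By edgeR none was called in RPF in FXS or DKO, with 6 of 32 below an unadjusted p of 0.05 in each (9.87% and 17.1% of all genes were), and DESeq2 called 1 in FXS. In DKO 28 of 32 were below 0, with a median of -0.27. The alpha subunit that pairs with integrin beta 4, Itga6, had footprint differences of 0.11 ± 0.118 in FXS and 0.11 ± 0.142 in DKO, neither called (adjusted p = 0.783 and 0.711). Plec, which encodes plectin, had differences of -0.56 ± 0.146 and -0.52 ± 0.184, not called (adjusted p = 0.215 and 0.201). Cd151, a tetraspanin partner of laminin-binding integrins, differed by -0.32 ± 0.169 in DKO and was not called (adjusted p = 0.341). Lamb1, a laminin chain, was the single mRNA call of the list in DKO and fell by 0.39 (SE 0.0918, adjusted p = 0.0185), a call lost without the batch term, while its footprints differed by -0.05 ± 0.113 (adjusted p = 0.832).

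The call thresholds of the comparisons that chose the genes were met as follows. These values and counts of settings describe how the choice depended on the fit, and they are no test of the 4 genes. In FXS footprints, 21 genes (0.151%) were lower and included Igsf9b, Zfpm1 and Itgb4. In DKO footprints, 47 genes (0.337%) were lower and included Zfpm1 and Itgb4. In FXS TE, 9 genes (0.0659%) were lower and included Igsf9b and Zmiz1. In DKO TE, 410 genes (3.00%) were lower and included Zmiz1, Zfpm1 and Itgb4. Nearest to the threshold inside were Itgb4 in FXS footprints (adjusted value 0.0461) and Igsf9b in FXS TE (0.0497), and nearest outside was Igsf9b in DKO footprints (0.0749). Igsf9b passed the FXS TE threshold in none of 8 other settings (0.0503 to 1.0 in 7, and DESeq2 gave no adjusted value). One of the 8, chosen after seeing the data, scaled each assay on its own tested genes, and it left 2 genes lower in FXS TE, Zmiz1 among them but not Igsf9b (0.0537). Zmiz1 passed there in 6 of 8, and in FXS footprints Igsf9b passed in 6, Zfpm1 in 5 and Itgb4 in 4 of 7 settings. In DKO footprints Zfpm1 passed in 5 and Itgb4 in 6 of 7, and in DKO TE Zmiz1 and Itgb4 passed in 7 and Zfpm1 in 6 of 8. The corresponding first genes beyond the threshold were Ttyh2 at 0.0592 in FXS footprints, Boc at 0.0504 in DKO footprints and Llgl1 at 0.0509 in FXS TE.

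Set side by side, the footprint estimates of the 4 genes fell into 2 arrangements by sign. No test between genes was run, and the S6K1 signs of Igsf9b and Zmiz1 turned on leaving out a single library. The DKO against FXS sign of Zmiz1 did so too, and without the batch term that sign turned for both Igsf9b and Zmiz1. For Igsf9b and Zmiz1, S6K1 against WT was 0.10 in both, and DKO against FXS was 0.23 ± 0.152 and 0.08 ± 0.0962 (adjusted p = 0.798 and 0.882). For Zfpm1 and Itgb4, S6K1 against WT and DKO against FXS were all below 0. The DKO difference departed from the sum of the FXS and S6K1 differences by -0.0027 ± 0.156 for Zfpm1, -0.04 ± 0.206 for Itgb4, -0.02 ± 0.128 for Zmiz1 and 0.13 ± 0.2 for Igsf9b (log2 ± SE, no test). By edgeR, DESeq2 and limma voom, none of the 4 genes was called in S6K1 against WT or DKO against FXS, in RPF, mRNA or TE. By edgeR without adjustment, p was below 0.05 for Zmiz1 mRNA and Itgb4 footprints in S6K1, and between DKO and FXS for Igsf9b mRNA and TE and for Itgb4 footprints and TE. Such a p was found for 7.37% of all genes in mRNA and 8.74% in RPF in S6K1, and between DKO and FXS for 9.81% in mRNA, 6.19% in RPF and 8.36% in TE. The shares of all genes called there were 0.0211% and 0.0281% in mRNA and 0.0293% and 0.0146% in TE.

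Within single RPF batches that held both genotypes, the FXS mean was below the WT mean for all 4 genes in 3 of 3 batches. The log2 ratio ran from -1.21 to -0.77 for Igsf9b, -0.42 to -0.18 for Zmiz1, -0.85 to -0.52 for Zfpm1 and -1.03 to -0.38 for Itgb4. DKO was below WT in 2 of 2 batches for each gene, and the ratio for Itgb4 was -1.48 and -1.04. For S6K1 against WT, both available batches were below 0 for Zfpm1 (-0.35 and -0.17) and Itgb4 (-0.42 and -0.34), while Igsf9b (-0.15 and 0.36) and Zmiz1 (-0.03 and 0.27) had 1 batch on each side. DKO against FXS was above 0 in both batches for Igsf9b (0.20 and 0.47) and below 0 in both for Zfpm1 (-0.23 and -0.22) and Itgb4 (-0.45 and -0.34). For Zmiz1 it had 1 batch on each side (-0.08 and 0.22). In mRNA, Zmiz1 was above WT in 4 of 4 batches in each mutant, from 0.27 to 0.40 in FXS, 0.26 to 0.48 in DKO and 0.12 to 0.43 in S6K1. These ratios rest on 1 or 2 libraries a side.

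**Figure D4:**
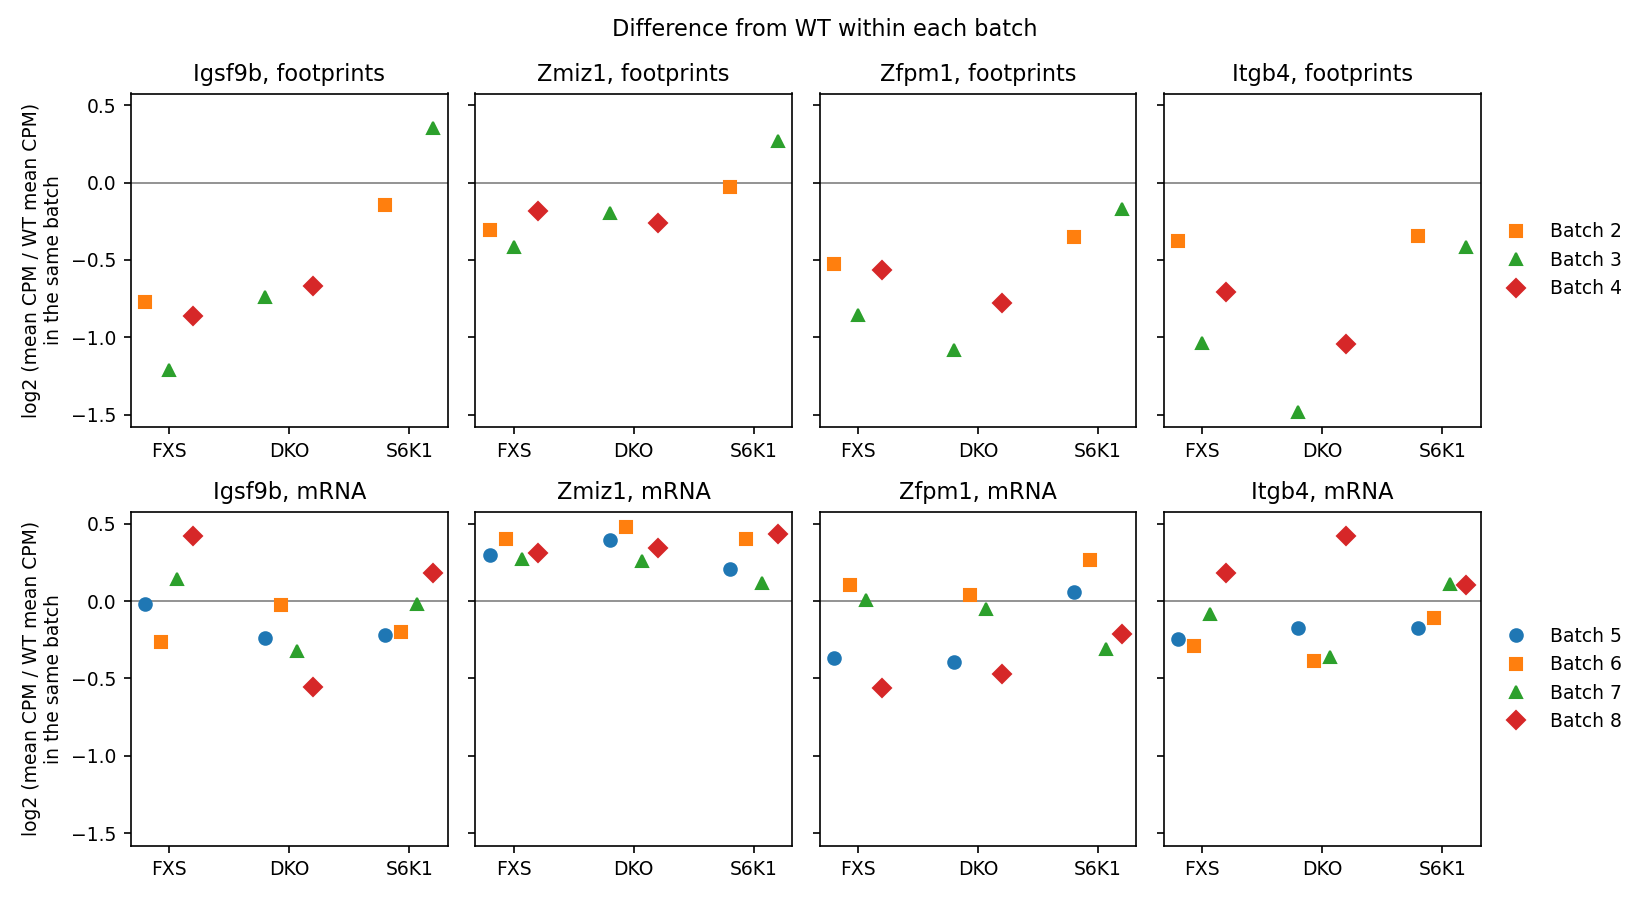
Log2 ratio of mean CPM to the WT mean CPM of the same batch (y axis) for FXS, DKO and S6K1 (x axis), 1 point per batch that held both genotypes, with footprints in the upper row and mRNA in the lower row. Footprint points of FXS and DKO are below 0 for all 4 genes, and Zmiz1 mRNA points are above 0 in all 3 genotypes.

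Markers of oligodendrocytes moved in the same comparisons. Of 24 tested oligodendrocyte and myelin genes, 7 were called lower in FXS footprints (0.151% of all genes were) and 9 in DKO footprints (0.337%), and 24 of 24 were below 0 in both (medians -0.55 and -0.62). In S6K1 footprints edgeR called none and DESeq2 called 2, but 24 of 24 were again below 0 (median -0.46), and 19 had an unadjusted p below 0.05 (8.74% of all genes did). In TE, 2 were called lower in FXS (0.0659% of all genes were), 15 in DKO (3.00%) and 1 in S6K1 (0.0293% in either direction), with medians of -0.43, -0.72 and -0.54. Their summed footprints were 3890 to 5630 CPM in WT, 2560 to 3790 in FXS, 3720 to 3870 in S6K1 and 2660 to 3580 in DKO, and no marker was at 0 counts. Their summed mRNA was 2910 to 4490 CPM in WT, 2760 to 4150 in FXS, 2900 to 4730 in S6K1 and 2840 to 4690 in DKO. In bulk cortex, fewer cells of a type and less RNA or fewer ribosomes per cell cannot be told apart, and the part of these cells in the Zfpm1, Itgb4, Igsf9b or Zmiz1 values was not tested. Endothelial markers summed to 68.6 to 104 footprint CPM in WT, 68.2 to 97.0 in FXS, 83.2 to 87.6 in S6K1 and 66.4 to 92.3 in DKO. Of 18 tested endothelial genes, edgeR and DESeq2 called none in RPF in FXS or DKO, with 10 of 18 and 16 of 18 below 0 (medians -0.03 and -0.33). Among them 0 and 4 had an unadjusted p below 0.05, against 9.87% and 17.1% of all genes. In S6K1 16 of 18 were below 0 (median -0.32), with none called and 2 below an unadjusted p of 0.05 (8.74% of all genes were). Endothelial mRNA was below 0 for 8 of 19 genes in FXS, 19 of 19 in S6K1 and 17 of 19 in DKO (medians 0.02, -0.42 and -0.31). An unadjusted p below 0.05 was found there for 2, 8 and 8, against 12.7%, 7.37% and 22.3% of all genes. By edgeR none was called in FXS or S6K1 (DESeq2 called 1 in S6K1). It called 2 lower in DKO (5.23% of all genes were called in either direction). The part of endothelial cells in the Itgb4 values was not tested. Inhibitory neuron markers, relevant to Igsf9b, summed to 1680 to 2060 footprint CPM in WT, 1650 to 2050 in FXS, 1990 to 2520 in S6K1 and 1900 to 2280 in DKO. The median of 14 markers was 0.03 in FXS, 0.20 in S6K1 and 0.17 in DKO. Of these 14, edgeR called none in RPF in FXS, S6K1 or DKO, and DESeq2 called 1, 0 and 1. An unadjusted p below 0.05 was found for 1, 7 and 7, against 9.87%, 8.74% and 17.1% of all genes. In mRNA edgeR called 1 of the 14, the same gene, lower in FXS and in DKO, where 8 and 4 of 14 were below 0. Of all genes, 0.155% and 5.23% were called there in either direction. Of astrocyte, microglia, excitatory neuron, and meninges and choroid plexus genes, 12 tested in each list, edgeR and DESeq2 called none in RPF in FXS or DKO. In each list 0 to 2 had an unadjusted p below 0.05, against 9.87% and 17.1% of all genes. Excitatory neuron genes were below 0 in RPF for 11 of 12 in FXS and 10 of 12 in DKO (medians -0.13 and -0.20). The other lists had 3 to 7 of 12 below 0. In DKO, edgeR called 3 excitatory neuron genes higher in mRNA (5.23% of all genes were called in either direction). It called 2 of them lower in TE (3.00% of all genes were), where the list median was -0.41.

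**Figure D5:**
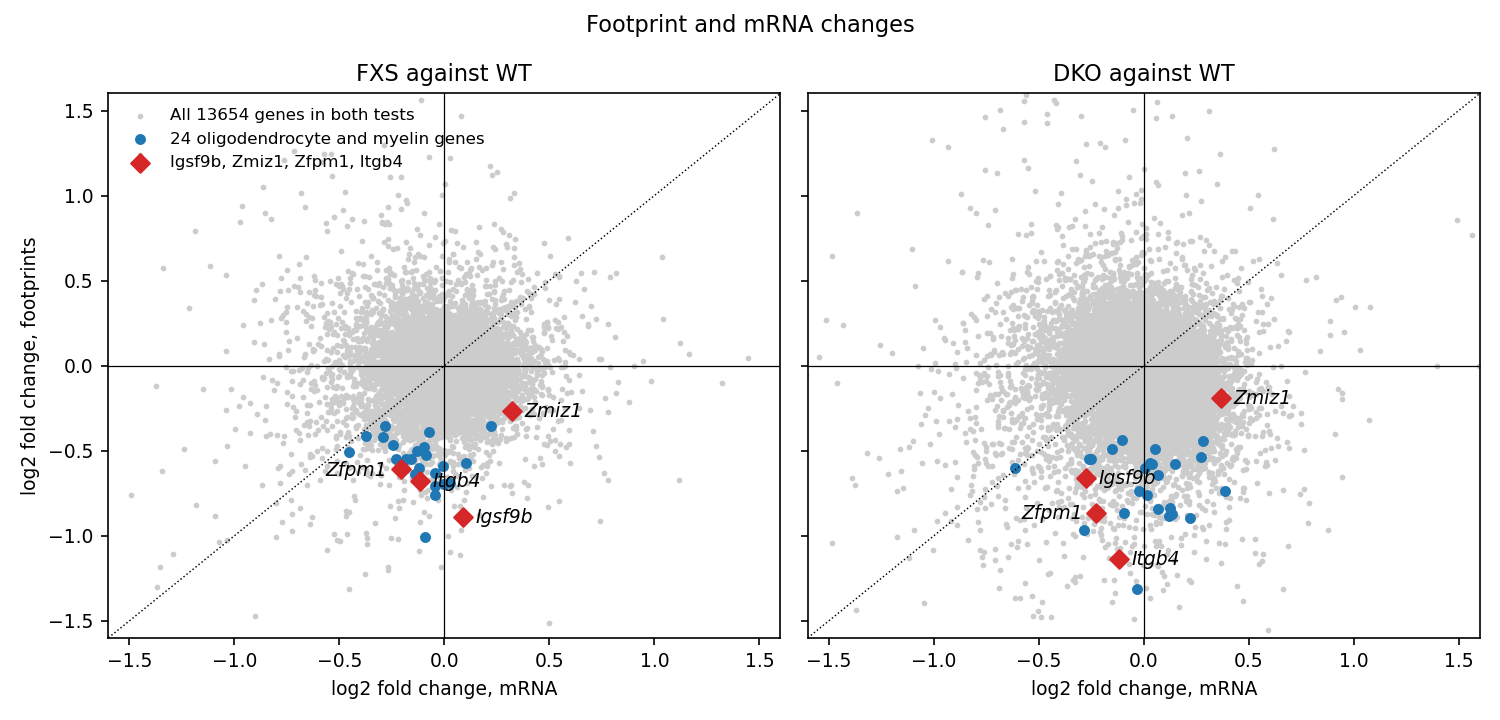
Log2 fold change of mRNA (x axis) against that of footprints (y axis) for 13654 genes in FXS (left) and DKO (right) against WT, with 24 oligodendrocyte and myelin genes in blue, the 4 genes in red and the dotted line marking equal change; 12 and 45 genes lie outside the axes. Zfpm1, Itgb4 and Igsf9b lie among or below the oligodendrocyte genes, and Zmiz1 lies to the right of them with higher mRNA.

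The likeness of footprint profiles was taken as Pearson's r of log2 CPM over the 15 RPF libraries after removal of batch, and it is a description without a p, since the libraries, their genotypes and their depth are shared by all genes. Genotype differences were kept in these values, so the choice of the 4 genes for lower values in FXS or DKO enters r among them. With that limit, Zfpm1 and Itgb4 were most alike of the 4 genes (r = 0.97), followed by Igsf9b and Zmiz1 (0.93). Zmiz1 and Itgb4 were least alike (0.61). Of 10442 other genes with a mean of at least 5 CPM, those most like Zfpm1 were Ndrg1 (0.94), Phldb1 (0.92) and Tnrc6c (0.92). Among those most like Itgb4 were Tkt (0.93) and Shroom1 (0.92). Ndrg1 belongs to the oligodendrocyte list. The genes most like Igsf9b were Ldhb (0.97), Atmin (0.95) and Rph3a (0.94), and those most like Zmiz1 were Trim41 (0.94), Inf2 (0.93) and Enkd1 (0.93), none of them on that list.

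In the authors' deposited tables for FXS and DKO against WT, the log2 fold changes of the 4 genes differed from those above by at most 0.008 in mRNA, 0.0071 in RPF and 0.0349 in TE. The standard errors in the authors' deposited table for TE were 1.43 to 1.77 times those given above. For Igsf9b in FXS, for instance, the authors' deposited table gives a TE difference of -0.99 with a standard error of 0.345.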

How the data were processed

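Counts per gene symbol over coding sequence, as deposited, were the starting point (20436 symbols, 15 RPF and 16 mRNA libraries). The authors' notes name cutadapt 2.0, Bowtie2, TopHat2, RSEM and mm10 per the submitters' processing notes, with no role or order, and the annotation and read filters are not given in the sources used here. The authors' deposited comparison tables hold a mean normalized signal, log2 changes and their errors, a score and p-values, per the file headers. From these the log2 changes and errors are printed.

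Genotype and batch came from the labels. Genes were kept by edgeR's filterByExpr on genotype (13953 in RPF, 14215 in mRNA), scaled by TMM and fitted with edgeR 4.0.16 (R 4.3.3) by robust quasi-likelihood on batch and genotype over all genotypes; adjusted p-values are Benjamini-Hochberg over all genes. TE was the RPF contrast minus the mRNA contrast in 1 model of 31 libraries, with batch within assay, on 13654 genes, scaled by TMM on those genes. Alternatives were DESeq2 1.42.0, limma voom 3.58.1, RLE size factors, no low-count filter, 2 genotypes alone, no batch term and leaving out each library, and, chosen after seeing the data, leaving out the batch 1 footprint libraries and scaling TE on the tested genes of each assay alone. Libraries of 1 batch deviated together after genotype was removed (median correlation 0.271 over 24 mRNA pairs and 0.298 over 20 RPF pairs, against -0.136 and -0.0989 between batches), and batch, a term the labels give, was kept as the replicate block. No 2 libraries repeated each other (smallest chi-square per degree of freedom 4.67 in mRNA and 7.79 in RPF).

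The 4 genes and all gene lists were chosen with earlier results of these data known. Named beside the 4 genes and Fmr1 are 12 partners and paralogs, and other genes of the 4 pathway lists called in any comparison; a few genes these rules pick are counted but not reported by name here. Rps6kb1 and Galk1, and the genes at the thresholds, were added after their values were seen.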

Additional observations from a re-analysis of the deposited data

Results flagged for a closer look

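In 24 groups of 4 or 5 libraries, the gap between the most extreme library and its nearest neighbour was set against the range of the group with Dixon's critical values; chance alone marks about 1 in 20 groups, and 5 were marked. In RPF, Zfpm1 had its lowest WT library at 15.3 CPM and its lowest FXS library at 8.48 CPM, both of batch 3. In mRNA, Zfpm1 had its highest WT library at 85.7 CPM (batch 8) and its lowest FXS library at 41.7 CPM (batch 5). Igsf9b mRNA had its highest DKO library at 10.6 CPM (batch 5), the batch that was also the highest for Igsf9b in WT, FXS and S6K1.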

How the results depend on the processing

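Without the replicate block (no batch term), Igsf9b and Zmiz1 footprints in DKO against WT moved to -0.86 and -0.53, and TE in DKO against WT to -0.90 for Zmiz1 and -1.001 for Zfpm1. In the same setting the sign turned for Zmiz1 footprints in S6K1 against WT (-0.21), for DKO against FXS footprints of Igsf9b (-0.042) and Zmiz1 (-0.28), and for Zmiz1 TE in DKO against FXS (-0.33). Without the 2 batch 1 footprint libraries, a setting chosen after seeing the data, Zmiz1 TE in DKO against FXS was -0.025. None of the differences with a test was called in any setting, and the cause of these shifts was not tested.

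Leaving out 1 library at a time turned the sign of small differences. In mRNA, S6K1 against WT ran from -0.14 to 0.067 for Zfpm1 and from -0.12 to 0.048 for Itgb4, and DKO against FXS from -0.0896 to 0.064 and from -0.15 to 0.0897. In RPF, S6K1 against WT ran from -0.17 to 0.33 for Igsf9b and from -0.039 to 0.18 for Zmiz1, and DKO against FXS from -0.0068 to 0.17 for Zmiz1. In TE, Igsf9b in S6K1 against WT ran from -0.10 to 0.39 and Zmiz1 in DKO against FXS from -0.049 to 0.13. Igsf9b mRNA in FXS against WT, given without a test, ran from -0.03 to 0.19, and in DKO from -0.405 to -0.13, the value without DKO replicate 4. Zmiz1 footprints in DKO ran from -0.23 to -0.0951, the value without DKO replicate 3.

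No other sign of a tested difference turned. Footprints of the 4 genes in FXS and DKO, the comparisons that chose them, stayed below WT in every setting run. The number of genes called depended on the setting: in RPF 23 in FXS (1 to 114) and 51 in DKO (2 to 289), in TE 13 (1 to 152) and 662 (2 to 1160), in mRNA 22 (2 to 446) and 743 (2 to 1101). Of 6 mRNA and 9 TE calls of pathway genes in DKO, the setting without the batch term kept 0, while 1 and 6 were lost with 2 genotypes alone, 1 in mRNA with RLE size factors, 2 in TE without the low-count filter and 3 in TE without the batch 1 footprint libraries. None was lost with DESeq2, limma voom or, in TE, scaling on each assay's own tested genes. Counts of 71 to 223 per library limit Igsf9b mRNA.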
